A study of Mus musculus with 2 samples.

Results

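The S-phase tumour cells described here were 1980 of 19796 gated tumour cells, which were themselves part of 28346 cell barcodes from 2 subcutaneous mouse tumours. S phase is the stretch of the cell cycle in which the genome is copied. A cell entered the tumour gate with at least 3000 unique molecular identifiers (UMIs, the tags that mark single captured transcripts), at most 15% mitochondrial UMIs, at least 5 UMIs of Hmga2, Sox9, Tafa1 and Hoxa9 together, and 0 UMIs of Ptprc, the gene of the leukocyte antigen CD45. The S-phase members were the top 10% of these cells, both tumours pooled, by the summed UMIs of Pclaf, Rrm2, Tk1, Clspn, Neil3 and Esco2 per 10000 UMIs of the cell. The tumour labelled SPP1 gave 976 members of 10191 gated cells and the tumour labelled vector gave 1004 of 9605.

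Both tumours were grown from MC38, a mouse colon adenocarcinoma line labelled WT in genotype, as a lentivirally transduced cell pool implanted under the skin of C57BL/6 mice. The SPP1 pool carried SPP1, the gene of the secreted protein osteopontin, and the vector pool carried the control vector. Mice of both groups received anti-PD-1, an antibody against a T cell checkpoint receptor, at 10 mg/kg 2 times a week for 2 weeks from day 7. Each group gave 1 sequenced tumour from 1 mouse, so animal, tumour, library and condition cannot be told apart, no test across animals was possible, and all intervals cover counting error only. The label of the SPP1 pool was not seen in the mouse Spp1 gene of the members: 2353 Spp1 UMIs were counted in SPP1 members, in 51.1% of cells, against 2378 in vector members, in 50.3% of cells. Which part or species of the gene the virus carried is not given in the sources used here, and its transcripts may escape counting at the mouse gene, so the libraries are called by their labels. Of the epithelial genes that a colon adenocarcinoma label would call for, several were near 0. Epcam, the epithelial adhesion gene, had 0 UMIs in SPP1 members and 1 UMI in vector members, and the intestinal genes Cdx2 and Krt20 had 0 in both. With Cdh1, Krt8, Krt18, Krt19 and Vil1, these 8 genes, chosen after the data were seen, summed to 1.62 and 2.20 CPM (UMIs scaled to a fixed total) in SPP1 and vector members, against 2.11 and 2.43 CPM in the other gated cells. Krt14, a keratin of stratified epithelium outside these 8, stood at 86.2 and 140 CPM in SPP1 and vector members. Tumour cells are therefore named by the gate.

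Before a cell can copy its DNA, MCM helicase complexes are loaded on origins in G1, a step named licensing. Cyclin-dependent kinases then fire the origins, and DNA polymerases held by the sliding clamp PCNA extend the new strands. E2F transcription factors, freed from the retinoblastoma proteins, drive many of the genes needed, from the helicase to the enzymes that make deoxynucleotides. Histones are made in the same phase to package the new DNA, and repair proteins that act at stalled forks are abundant. Genes of mitosis follow later and are controlled in large part through a different promoter element, the cell cycle homology region (CHR).

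The 6 genes that chose the members differ in role. Pclaf (ENSMUSG00000040204) encodes a PCNA-binding protein, Rrm2 (ENSMUSG00000020649) the small subunit of ribonucleotide reductase, and Tk1 (ENSMUSG00000025574) the cytosolic thymidine kinase. Clspn (ENSMUSG00000042489) encodes claspin, a fork protein that hands checkpoint signals to CHK1. Neil3 (ENSMUSG00000039396) encodes a DNA glycosylase that acts on crosslinks at forks, and Esco2 (ENSMUSG00000022034) an acetyltransferase that locks cohesin on sister chromatids. Promoters of 2 of these genes and of 2 mitotic genes are shown because the members were chosen by the one kind and a comparison group below by the other, each from 250 bases before to 50 bases after the transcription start, from RefSeq on build GRCm38.p6, while the expression data were made on GRCm39. The capitals mark an E2F motif (TTTGGCGC, TTTCCCGC, TTTGCCGC or TTTCGCGC, on either strand) in the promoters of Pclaf at chr9:65890073-65890372 on the plus strand and of Clspn at chr4:126556730-126557029 on the plus strand.
Pclaf: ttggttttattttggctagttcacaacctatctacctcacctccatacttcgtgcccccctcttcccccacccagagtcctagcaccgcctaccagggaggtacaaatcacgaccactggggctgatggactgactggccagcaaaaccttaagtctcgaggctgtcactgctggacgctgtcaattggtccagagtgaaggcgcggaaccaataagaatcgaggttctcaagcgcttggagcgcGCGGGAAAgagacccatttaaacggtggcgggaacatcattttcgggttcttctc
Clspn: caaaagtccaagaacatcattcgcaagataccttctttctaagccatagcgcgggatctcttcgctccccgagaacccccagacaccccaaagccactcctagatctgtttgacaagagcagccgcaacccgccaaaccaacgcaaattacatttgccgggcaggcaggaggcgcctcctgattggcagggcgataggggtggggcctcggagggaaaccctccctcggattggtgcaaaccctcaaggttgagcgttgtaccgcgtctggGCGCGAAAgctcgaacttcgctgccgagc
In the promoters of the mitotic genes Cdc20 at chr4:118437294-118437593 on the minus strand and Plk1 at chr7:122159185-122159484 on the plus strand the capitals mark a CHR motif (TTTGAA, on either strand).
Cdc20: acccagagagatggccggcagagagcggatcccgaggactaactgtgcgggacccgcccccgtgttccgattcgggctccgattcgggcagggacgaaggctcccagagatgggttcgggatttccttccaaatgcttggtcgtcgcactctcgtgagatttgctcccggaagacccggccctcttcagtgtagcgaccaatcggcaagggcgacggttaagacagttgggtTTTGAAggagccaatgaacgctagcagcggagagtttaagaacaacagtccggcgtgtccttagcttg
Plk1: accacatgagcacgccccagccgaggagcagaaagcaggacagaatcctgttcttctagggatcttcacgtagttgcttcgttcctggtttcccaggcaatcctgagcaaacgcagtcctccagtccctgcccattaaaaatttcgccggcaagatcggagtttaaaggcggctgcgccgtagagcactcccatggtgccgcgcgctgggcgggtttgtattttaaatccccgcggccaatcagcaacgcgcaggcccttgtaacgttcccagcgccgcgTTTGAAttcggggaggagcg
Counted from the transcription start, the E2F motif began at position -5 of Pclaf and 22 of Clspn, and the CHR motif at position -18 of Cdc20 and 31 of Plk1. Of the 6 genes that chose the members, 5 had a RefSeq promoter (not Esco2), and 2 of the 5 held an E2F motif. Counted by gene, with a match in any of its promoters of this length, the E2F motif was held by 2.61% of 27025 genes. It was held by 8 of 14 genes of an origin licensing list and 6 of 17 of a polymerase and clamp list. By the same count, the CHR motif was in 20.2% of all genes, in 0 of the 5, and in 33 of 47 genes (70.2%) of a G2/M and mitosis list. It was also in 4 of 8 genes of helicase activation and 5 of 14 of the G1/S list, and not in the promoter of the mitotic cyclin gene Ccnb1. Such matches describe letters in these windows and say nothing of binding.

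In the members each of the 6 genes stood well above its level in the other gated cells, which is how they were chosen and is given as a description. UMIs were summed over cells and given as CPM, counts scaled to the same total in each group of cells. Pclaf stood at 937 and 902 CPM in SPP1 and vector members, against 153 and 156 CPM in the other gated cells of the same tumours. Rrm2 stood at 193 and 225 CPM in SPP1 and vector members, against 31.8 and 40.6 CPM in the other cells. The remaining 4 genes had log2 ratios of members over other cells between 2.25 and 2.58 in the separate tumours. When each gene was left out of the score and the members were chosen by the other 5, the gene left out was still higher in the members, by 2.16 and 2.13 (log2, SPP1 and vector tumour) for Pclaf, 2.35 and 2.18 for Rrm2, 2.09 and 1.97 for Tk1, 2.15 and 2.07 for Clspn, 2.22 and 2.15 for Neil3, and 2.30 and 2.21 for Esco2. Since the 6 genes were given as a set, this describes the set. UMIs of all 6 were present in 63.8% of SPP1 members and 64.0% of vector members, against 4.69% and 5.73% of the other cells. No UMI of any was found in 0 members, against 4035 (43.8%) of the other SPP1 cells and 3757 (43.7%) of the other vector cells.

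**Figure D1:**
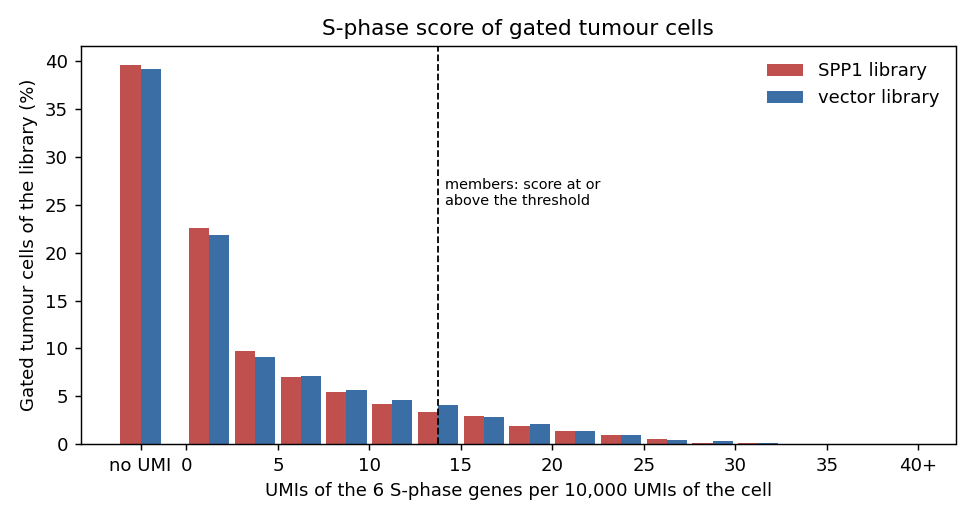
Distribution of the summed UMIs of the 6 genes per 10000 UMIs of a cell (horizontal axis) in gated tumour cells of the SPP1 and the vector library, with the member threshold drawn as a line. Scores run without a gap across the threshold of 13.8, and the members' median was 17.8 in both libraries.

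The threshold fell within a continuous range of scores and not in a gap. The lowest member had 13.7571 UMIs of the 6 genes per 10000 and the highest non-member 13.7472. The 10 members just inside reached 13.7791 and the 10 cells just outside went down to 13.7116. In all, 399 members lay within 10% above the threshold and 417 other cells within 10% below it. Another measure of the same continuum is that 2649 other gated cells lay above 6.88 UMIs per 10000. Members held a median of 36 UMIs of the 6 genes (lowest 5, highest 130), against a median of 1 (highest 76) in the other cells.

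Members were also deeper cells. Median depth was 20086 UMIs in SPP1 members and 19590 in vector members, against 11735 and 12439 in the other cells, a ratio of 1.71 and 1.57. With every cell thinned to 3000 UMIs the difference in detected genes was small, at medians of 1679 and 1687 in SPP1 and vector members against 1637 and 1646 in the other cells. Across 5 depth bins of equal size, the share of members in the SPP1 tumour was 4.16%, 2.94%, 4.11%, 13.2% and 24.4% from the shallowest to the deepest bin. In the vector tumour it was 4.84%, 3.08%, 4.67%, 14.2% and 24.5%. Members were therefore found mostly among deep cells, and whether cell size, RNA content or capture set the depth was not tested. When cells were thinned to 3000 UMIs before scoring, the selection held 66.2% of the members. Predicted doublets made up 4.51% of SPP1 members and 4.38% of vector members, against 5.76% and 4.55% of the other cells, and mitochondrial medians were 1.72% and 1.61% against 1.70% and 1.61%.

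Of 6772 genes at 20 CPM or more over all gated cells, 141 (2.08%) were at least 2-fold higher in members than in the other cells in both tumours, and 37 (0.546%) at least 2-fold lower. Because the members were picked from these same transcriptomes, these shares describe the group and are read no further. Lists of cell cycle and replication genes held 86 of the 141 higher genes (61.0%), and 194 of their 290 genes passed the level filter. These totals include the 6 genes that chose the members, which were higher by selection. The median log2 ratio over all 6772 genes was -0.02 in each tumour. Among the higher genes outside the lists, the nearest to the top was Cenpp, the gene of a centromere protein, at 142 and 163 CPM in SPP1 and vector members against 36.8 and 40.4 CPM in the other cells.

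**Figure D2:**
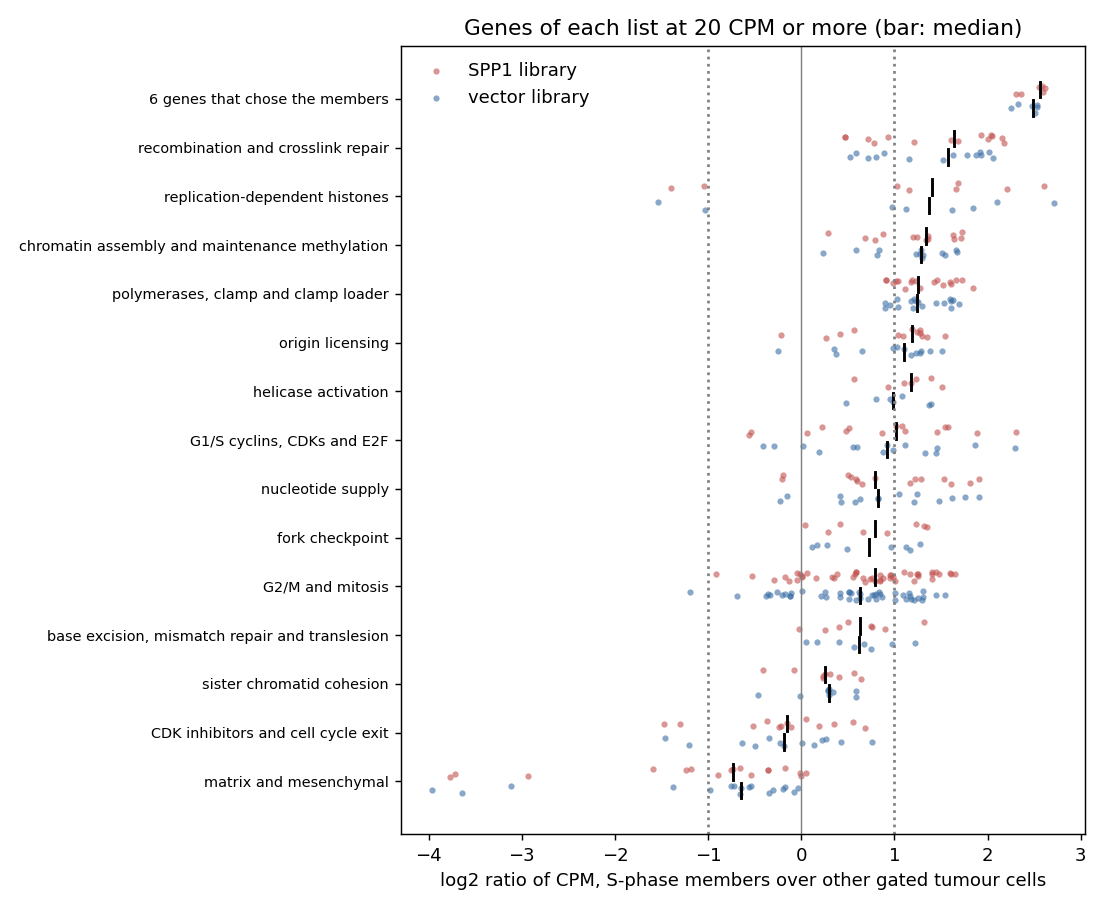
Log2 ratio of members over other gated cells (horizontal axis, CPM of summed UMIs) for genes of each list (rows), SPP1 library drawn above vector library in each row, 1 point per gene that passed the level filter and a line at each list's median. Replication and repair lists lie right of 0, with list medians up to 1.64 and 1.58 for recombination genes, and the matrix list lies left, at -0.73 and -0.65.

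Genes that license and fire origins were among the higher ones. Of 16 licensing genes, 13 passed the level filter, 8 were at least 2-fold higher in both tumours and 0 lower, with a median log2 ratio of 1.18 in the SPP1 and 1.1 in the vector tumour. Gmnn, whose product geminin blocks a further round of licensing during S phase, stood at 142 and 143 CPM in SPP1 and vector members against 48.9 and 50.3 CPM in the other cells. The helicase subunit Mcm5 stood at 129 and 128 CPM in members against 50.7 and 49.2 CPM in the other cells. For both genes the summed level of members was above that of the other cells in each tumour. The licensing factor Cdc6, below the level filter, was the steepest of the list at 34.8 and 41.5 CPM against 8.66 and 10.6 CPM. Subunits of the origin recognition complex were less uniform: Orc6 had log2 ratios of 1.18 and 1.23, but Orc4 had -0.22 and -0.25. Of 7 measured genes of helicase activation, out of 13, 3 were 2-fold higher. These were Wdhd1 (1.51 and 1.39), which joins the helicase to polymerase alpha, the GINS subunit Gins2 (1.39 and 1.37) and the kinase activator Topbp1 (1.23 and 1.08), while Cdc45 fell just short in the vector tumour (1.1 and 0.99).

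The replication fork itself gave the most complete group. Of 21 genes of the polymerases, the clamp and its loader, 18 passed the filter, 15 were at least 2-fold higher in both tumours and 0 lower, with medians of 1.25 and 1.24. The clamp gene Pcna stood at 818 and 947 CPM in SPP1 and vector members, against 270 and 312 CPM in the other cells. Pole, the catalytic subunit of the leading strand polymerase, stood at 63.4 and 59.2 CPM in members against 17.7 and 18.4 CPM in the other cells. The lagging strand enzymes Fen1, a flap nuclease, and Lig1, a ligase, followed with log2 ratios of 1.73 and 1.61 for Fen1 and 1.66 and 1.61 for Lig1. The 3 genes short of 2-fold (Rfc1, Pold3 and Pold2) still had ratios of 0.90 to 0.99. Of 8 measured fork checkpoint genes, out of 12, 3 were 2-fold higher: Dtl (1.34 and 1.27), part of the ubiquitin ligase that degrades Cdt1, the checkpoint kinase gene Chek1 (1.32 and 1.17) and the fork protection gene Tipin (1.23 and 1.13). The apical kinase gene Atr had ratios of 0.42 and 0.27, and Wee1, which restrains mitotic kinase, 0.04 and 0.11.

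Nucleotide supply divided between enzymes of deoxynucleotide synthesis and the rest. Of 18 genes, 15 passed the filter, 7 were 2-fold higher in both tumours and 0 lower, with medians of 0.79 and 0.82. Tyms, the thymidylate synthase, stood at 106 and 102 CPM in SPP1 and vector members, against 28.4 and 27.1 CPM in the other cells. The large reductase subunit Rrm1 had ratios of 1.53 and 1.48 and the salvage kinase Dck 1.61 and 1.62. The alternative small subunit Rrm2b, a p53 target used outside S phase, had -0.20 and -0.16 instead, and Samhd1, which breaks deoxynucleotides down, had -0.21 and -0.23. Enzymes of base synthesis shared with RNA lay between, from 0.42 (Impdh2, vector tumour) to 0.82 (Umps, vector tumour).

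Histone genes went in both directions. Most replication-dependent histone transcripts carry no poly(A) tail, and only 8 of 43 listed genes passed the level filter, 5 of them 2-fold higher and 2 of them 2-fold lower in members. The linker histone gene H1f5 stood at 197 and 209 CPM in SPP1 and vector members, against 32.4 and 31.9 CPM in the other cells, ratios of 2.61 and 2.71, as large as those of the genes that chose the members. H1f4 stood at 182 and 188 CPM in members, against 39.4 and 44.0 CPM in the other cells. The opposite order held for H2bc4, at 156 and 107 CPM in SPP1 and vector members against 413 and 311 CPM in the other cells. H1f2 stood at 108 and 95.5 CPM in members, against 223 and 196 CPM in the other cells. Slbp, whose protein binds the stem-loop of histone messages, was 2-fold higher (1.03 and 1.12). How the libraries were primed is not given in the sources used here, so levels of these genes may be incomplete, and family members with near-identical sequence can share reads.

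Genes that rebuild chromatin behind the fork were higher in the main. Of 15 genes of chromatin assembly and maintenance methylation, 13 passed the filter, 9 were 2-fold higher and 0 lower, with medians of 1.34 and 1.29. Uhrf1, which brings DNA methyltransferase to newly copied strands, stood at 348 and 421 CPM in SPP1 and vector members, against 113 and 148 CPM in the other cells. The methyltransferase gene Dnmt1 had ratios of 1.34 and 1.31. The paired histone chaperones parted, with Asf1b at 1.72 and 1.66 and Asf1a at 0.29 and 0.23. In the cohesin list 9 of 14 genes passed the filter and 0 were 2-fold higher in both tumours, with medians of 0.26 and 0.29. Of the 9, the core subunit Smc3 had the largest ratios (0.64 and 0.59). Below the filter, Cdca5, the gene of the cohesin protector sororin, had 2.06 and 2.06, and Dscc1, of an alternative clamp loader, 2.15 and 2.26. Esco1, the paralogue of Esco2, had -0.41 and -0.46.

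Recombination and crosslink repair genes had the largest median of the replication and repair lists at this level filter. Of 25 genes, 14 passed the filter, 9 were 2-fold higher in both tumours and 0 lower, with medians of 1.64 and 1.58. With each gene's log2 ratio averaged over the tumours, the median was 1.61. At a filter of 50 CPM, where fewer genes remain, this median was 0.60, so the rank depends on the filter. Brca1, a scaffold of homologous recombination, stood at 92.6 and 90.9 CPM in SPP1 and vector members, against 22.4 and 23.8 CPM in the other cells. The helicase gene Brip1 (2.16 and 2.06) and the nuclease gene Exo1 (2.00 and 1.78) were near it on the log2 scale, where Brca1 had 2.05 and 1.93. Genes of the break sensor complex were lower on this scale, at 0.94 and 0.89 for Mre11a, 0.72 and 0.72 for Rad50, and 0.47 and 0.59 for Nbn. In a list of base excision, mismatch repair and translesion genes, 8 of 17 passed the filter and only Rad18, a ubiquitin ligase of stalled forks, was 2-fold higher (1.32 and 1.22).

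Regulators of entry into S phase were higher in part. Of 19 genes of the G1/S list, 15 passed the filter and 6 were 2-fold higher, with 0 lower. Ccne2, a cyclin that activates CDK2 at the start of replication, stood at 66.1 and 83.8 CPM in SPP1 and vector members, against 13.4 and 17 CPM in the other cells. Fbxo5, an inhibitor of the anaphase-promoting complex, had ratios of 1.88 and 1.86, and the repressor E2F genes E2f8 and E2f7 had 1.57 and 1.46 and 1.54 and 1.44. The activator genes E2f1 (1.27 and 1.1) and E2f2 (1.69 and 1.65) lay below the level filter. Of the D-type cyclins, which act in G1, Ccnd1 had 0.23 and 0.19 and Ccnd2 had -0.56 and -0.41. In the list of CDK inhibitors and genes of cell cycle exit 13 of 18 passed the filter, 0 were 2-fold higher and 2 were 2-fold lower. These were Mxd4, a repressor that competes with MYC for its partner, at 9.44 and 8.15 CPM in members against 26.2 and 22.5 CPM in the other cells, and the antiproliferative gene Btg2 at 58.1 and 64.4 CPM against 143 and 149 CPM. Cdkn1b, the gene of p27, had -0.52 and -0.50, while Cdkn1a, that of p21, had 0.35 and 0.22.

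Genes of the G2/M list were mixed. Of 53 genes of the G2/M list, 47 passed the filter, 14 were 2-fold higher and 0 were 2-fold lower in both tumours. The topoisomerase gene Top2a stood at 1097 and 1084 CPM in SPP1 and vector members, against 349 and 373 CPM in the other cells. The mitotic kinase gene Aurkb had ratios of 1.6 and 1.44. Bub1 and Ndc80, which serve the spindle checkpoint and the kinetochore, had 1.17 and 1.00 and 1.40 and 1.30. Of the 6 genes later used to mark G2/M-high cells (Ccnb1, Cdc20, Plk1, Aurka, Cenpa and Hmmr), 0 were 2-fold higher or lower in both tumours, with medians of -0.11 and -0.31. Cdc20, the activator of the anaphase-promoting complex, stood at 47.4 and 44.9 CPM in members, against 89.2 and 103 CPM in the other cells, and Cenpa, the centromeric histone, at 82.8 and 71.4 CPM against 119 and 115 CPM. The G2/M list's median was 0.79 in the SPP1 and 0.63 in the vector tumour. With each gene's ratio averaged over the tumours, the list's median was 0.70. The same median was -0.05 when members were chosen by the licensing, helicase and polymerase lists instead of the 6 genes.

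For a direct comparison, a G2/M-high group was taken in the same way, as the top 10% of gated cells by Ccnb1, Cdc20, Plk1, Aurka, Cenpa and Hmmr. It also held 1980 cells. Both groups shared 49 cells in the SPP1 tumour, 5.02% of members (95% exact binomial interval 3.74% to 6.58%) and 4.99% of the G2/M-high cells. In the vector tumour they shared 29 cells, 2.89% of members (1.94% to 4.12%) and 2.91% of the G2/M-high cells. Against the 10% of all gated cells that this group holds by construction, few S-phase members were also G2/M-high. Ccne2 stood at 68.6 and 85.9 CPM in SPP1 and vector members outside the G2/M-high group, against 6.80 and 9.28 CPM in G2/M-high cells that were no members. H1f5 stood at 199 and 210 CPM in those members, against 46.7 and 44.7 CPM in those G2/M-high cells.

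Within the members, an order became visible when they were split into 4 groups of equal size by the summed G2/M list, which holds none of the genes named next. From the lowest to the highest group the licensing factor Cdc6 stood at 64.2, 37.7, 25.4 and 11.8 CPM in the SPP1 tumour, and at 67.9, 54.8, 30.7 and 13.5 CPM in the vector tumour. The lowest group was thus far above the highest in each tumour. Uhrf1 stood at 519, 382, 294 and 197 CPM in SPP1 members and at 629, 498, 330 and 237 CPM in vector members. Ccne2 also lay lowest in the highest group (29.4 and 42.6 CPM, against 95.2 and 103 CPM in the lowest).

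Linker histones and 2 of the genes that chose the members ran the other way. H1f5 stood at 81.9, 175, 247 and 284 CPM from the lowest to the highest group of SPP1 members, and at 79.6, 205, 260 and 286 CPM in vector members. Esco2, the cohesin acetyltransferase, stood at 76.7, 137, 164 and 215 CPM in SPP1 members and at 95.4, 132, 168 and 194 CPM in vector members. Neil3 stood at 121, 169, 218 and 248 CPM in SPP1 members and at 133, 207, 228 and 297 CPM in vector members. Rrm2 ran as Cdc6 did, at 227, 216, 177 and 151 CPM in SPP1 members and at 259, 255, 231 and 159 CPM in vector members, and Clspn was also lowest in the highest group (171 and 148 CPM, against 208 and 226 CPM in the lowest). The 6 genes were therefore not alike across the members. Pclaf, Tk1, Slbp and Brip1 changed by less than 1.5-fold across the 4 groups of each tumour, as did Clspn in the SPP1 tumour. Pclaf was also lowest in the highest group, at 804 CPM in SPP1 and 809 CPM in vector members. The groups held 230 to 265 cells per tumour, with median depths of 18283 to 21365 UMIs. Since all values of a cell share its total, and cells are not replicates, this order is a description of 2 tumours.

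**Figure D3:**
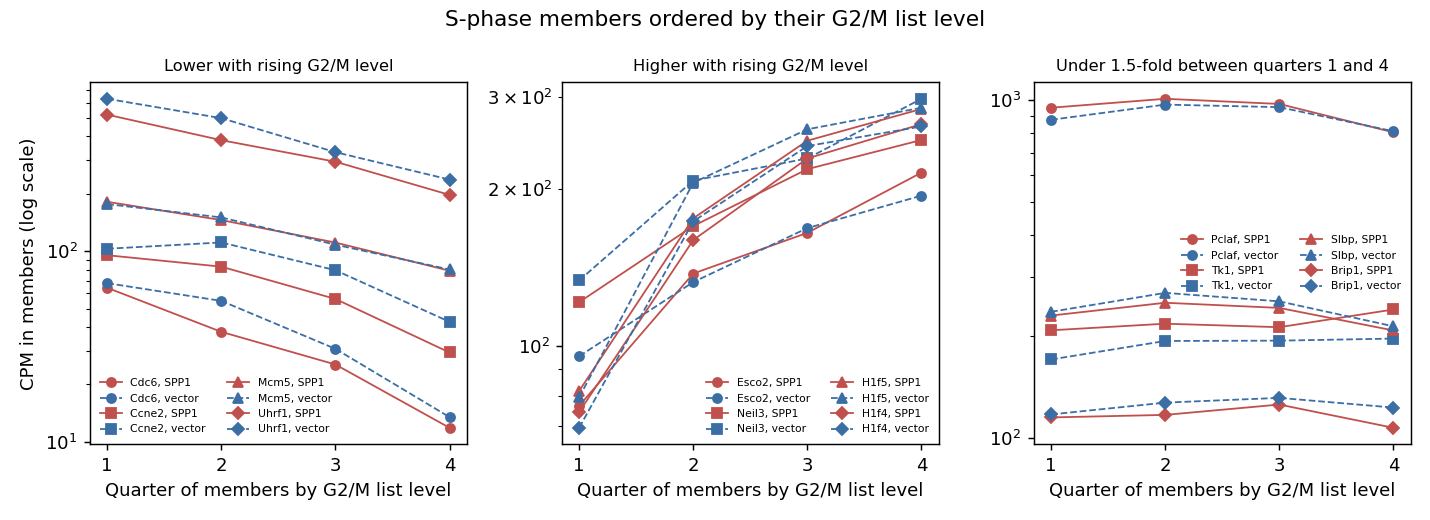
CPM of summed UMIs (vertical axis, log scale) in 4 equal groups of the members by the G2/M list (horizontal axis, lowest to highest). Each panel shows a set of genes, with the SPP1 library as solid and the vector library as dashed lines. Cdc6, Ccne2, Mcm5 and Uhrf1 are lower in the highest than in the lowest group, Esco2, Neil3, H1f5 and H1f4 are higher, and Pclaf, Tk1, Slbp and Brip1 stay within 1.5-fold.

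Across the whole gate, sorted by the score of the 6 genes, genes differed in where they were highest. H1f5 stood at 2.61 CPM in SPP1 cells without a UMI of the 6 genes, at 5.65 CPM under a score of 3.44, at 37.8 CPM from 3.44 to 6.88, at 118 CPM from 6.88 to the threshold and at 197 CPM in members. The vector tumour gave 2.21, 5.25, 38.3, 110 and 209 CPM. H1f5 was thus highest in the members in each tumour, and so was Top2a of the G2/M list, at 32.0, 119, 703, 972 and 1097 CPM across these bands of the SPP1 tumour. Cdc20 had its highest level in the middle band, at 10.9, 75, 237, 137 and 47.4 CPM across the same bands of the SPP1 tumour and 12.4, 91.9, 264, 140 and 44.9 CPM of the vector tumour. Cdc20 is among 6 genes that chose the G2/M-high cells, so a like course of their share was in part set by that choice. That share was 0.719%, 8.27%, 32.8%, 23.8% and 5.02% in the SPP1 tumour and 0.878%, 9.82%, 37.4%, 22.7% and 2.89% in the vector tumour. G2/M-high cells thus took a larger share of both intermediate bands than of the members, and most cells of those bands were not G2/M-high.

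The genes lower in members were led by matrix genes. Aspn, the small leucine-rich proteoglycan asporin, stood at 5.81 and 5.95 CPM in SPP1 and vector members, against 79.4 and 92.5 CPM in the other cells, with log2 ratios of -3.77 (95% interval -4.05 to -3.51) and -3.96 (-4.23 to -3.70). Its relative Ogn, osteoglycin, stood at 3.69 and 3.80 CPM in members, against 48.3 and 47.5 CPM in the other cells. Postn, the matricellular protein periostin, stood at 3.74 and 3.45 CPM in members, against 28.6 and 29.9 CPM in the other cells. In the GENCODE annotation of GRCm38, Aspn and Ogn lie on the other strand within the span of Cenpp, which was higher in members, and no source used here says whether the counting used strand. These 3 were the lowest ratios among the genes that could be named. Next came Islr, Ramp2 (a receptor activity-modifying protein), Id3 (an inhibitor of bHLH factors), Dcn (the proteoglycan decorin), Pde4d (a cAMP phosphodiesterase), Gsn (the actin-severing protein gelsolin), Cd55 (a complement regulator), Kdm7a (a histone demethylase) and Htra3 (a secreted protease), with ratios from -1.52 to -2.22. Of 20 genes of a matrix and mesenchymal list, 17 passed the filter, 0 were 2-fold higher and 4 were 2-fold lower (Aspn, Ogn, Postn and Col3a1). Col3a1 stood at 2505 and 2594 CPM in SPP1 and vector members against 7558 and 6736 CPM in the other cells. Mesenchymal identity genes did not share this, with ratios of -0.17 and -0.19 for Zeb1 and -0.02 and -0.03 for Twist1.

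Counts of cells gave the same picture. At least 1 UMI of Aspn or Ogn was found in 10.9% of SPP1 members and 9.66% of vector members, although members were deeper, against 28.7% and 27.0% of the other cells. At least 10 UMIs were found in 3 members of each tumour, against 537 and 575 other cells. When Aspn and Ogn-high cells were defined as those with at least 2 UMIs of the pair after thinning to 3000 UMIs, 3 of 929 of them were members in the SPP1 tumour (0.323%, interval 0.0666% to 0.941%), against 10.5% of the remaining gated cells. In the vector tumour 5 of 914 were members (0.547%, interval 0.178% to 1.27%), against 11.5% of the remaining cells. These cells were shallower (median 9886 against 12675 UMIs in the SPP1 tumour). Among cells at or above the median depth of the gate, 12609 UMIs, members were 2 of 206 Aspn and Ogn-high cells (0.971%) against 16.9% of the others in the SPP1 tumour, and 5 of 231 (2.16%) against 17% in the vector tumour.

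Other tumour cell states, each defined after thinning by the UMIs of its own genes, held members in different shares. Cells high in Pcdh9 and Nrep held 3.68% members in the SPP1 tumour (51 of 1384) against 10.5% in the rest, and 2.67% in the vector tumour (7 of 262) against 10.7%. Heat shock-high cells held 3.31% and 4.28% members in the SPP1 and vector tumour, against 10.4% and 11% of the rest. Interferon-responding cells held 5.67% and 6.83%, against 10.0% and 10.8%. Each of these states thus held a smaller share of members than the rest in both tumours, and each was also shallower. Median depths in the SPP1 tumour were 10550 against 12672 UMIs for Pcdh9 and Nrep, 10951 against 12455 for heat shock and 11003 against 12436 for interferon. The reverse held for cells high in the summed UMIs of Pdgfc, Inhba and Dkk2, called Pdgfc and Inhba-high. They held 14.7% members in the SPP1 tumour (206 of 1406) against 8.76%, and 15.5% in the vector tumour (62 of 401) against 10.2%. Those cells were also deeper, at a median of 14932 against 11864 UMIs in the SPP1 tumour and 15596 against 12876 in the vector tumour, and the part of depth in any of these shares was not tested. Cells with at least 1 UMI of Fbxl7 or Plxdc1 held 12.6% and 12.2%, against 9.39% and 10.3%, with intervals that overlapped in the vector tumour. These cells were deeper (14151 against 12179 UMIs in the SPP1 and 14834 against 12851 in the vector tumour). Hypoxic cells held 8.58% and 7.32% members against 9.71% and 11%, with intervals that overlapped in the SPP1 tumour. Cells with a UMI of Magea9, found nearly only in the SPP1 tumour, held 9.28% members (127 of 1368) against 9.62% in the rest, with overlapping intervals.

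**Figure D4:**
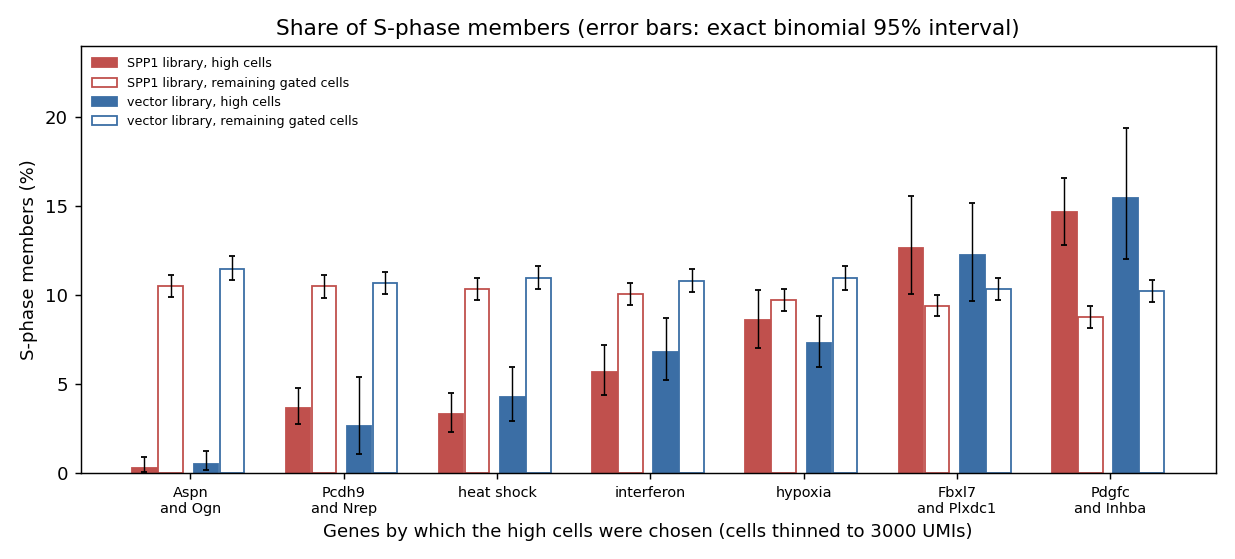
Share of S-phase members in percent (vertical axis) among gated cells inside (filled bars) and outside (open bars) each subset (horizontal axis). Bars of the SPP1 library stand left of those of the vector library, with exact binomial 95% error bars. Aspn and Ogn-high cells stand lowest, at 0.323% and 0.547%, and Pdgfc and Inhba-high cells (chosen with Dkk2 as well) highest, at 14.7% and 15.5%.

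Other gene programmes outside the cell cycle had few genes at 2-fold. In a list of Myc and ribosome biogenesis genes, 14 of 16 passed the filter and 0 were 2-fold away, with medians of 0.34 and 0.32, while Myc itself had -0.22 and -0.23. All 11 class I antigen presentation genes passed the filter and 0 were 2-fold away, with medians of -0.01 and -0.03. Of 14 measured hypoxia genes, out of 16, 0 were 2-fold away (medians -0.13 and -0.35). Heat shock genes had medians of -0.42 and -0.32 over 8 of 10 genes, and p53 targets -0.33 and -0.30 over 8 of 15, with 0 at 2-fold in both lists. Of 7 measured interferon genes, out of 17, only Ifit1 was 2-fold lower, but the medians of -0.58 and -0.54 lay further from 0 than those of the programmes just named. Cd44, a receptor for osteopontin, stood at 1420 and 1371 CPM in SPP1 and vector members, against 1214 and 1255 CPM in the other cells, and Spp1 at 119 and 119 CPM against 137 and 159 CPM. The gate genes Hmga2 (0.42 and 0.27), Sox9 (-0.15 and -0.18), Tafa1 (0.12 and -0.04) and Hoxa9 (-0.16 and -0.19) stayed within 1.5-fold, although each gated cell had to hold 5 UMIs of them.

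Between the tumours, members made up 9.58% of gated cells in the SPP1 tumour (exact binomial 95% interval 9.01% to 10.2%) and 10.5% in the vector tumour (9.85% to 11.1%). The log2 ratio of the shares was -0.13, with a counting interval of -0.25 to -0.01. With 1 tumour per group this interval holds no spread between animals, and it reached past 0 under several other settings, among them without cells with a Magea9 UMI, after removal of predicted doublets and after thinning. The threshold was set on both tumours pooled, so a lower share in 1 tumour implies a higher one in the other.

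Cell cycle and replication genes differed between members of the tumours by about as much as genes in general. Members of both tumours had passed the same threshold on 6 of these genes, so like levels were in part set by the selection. Of the 194 measured cell cycle and replication genes, 0 were at least 1.5-fold higher or lower, and the median size of their log2 ratio was 0.115. They ranged from 0.55 (H2bc4) to -0.46 (Ccnd2) on the log2 scale, SPP1 over vector, with a median of -0.06. Among their lists, the G1/S list had the median furthest from 0, at -0.21 in members and -0.19 in the other cells. The median over all 6772 genes was -0.03 in members. Over all 6772 genes, 53 (0.783%) were at least 1.5-fold higher in SPP1 members than in vector members and 22 (0.325%) at least 1.5-fold lower, and the median size of the log2 ratio was also 0.115. Of these, 24 and 4 carried clone or pseudogene names and are not named. In the other gated cells the counts were 44 (0.65%) and 26 (0.384%). Of the genes past 1.5-fold upward, 34 were shared, which is 64.2% of those in members and 77.3% of those in other cells. Of those past it downward 12 were shared, 54.5% and 46.2%.

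The genes that parted the members by tumour mostly parted the rest of the gate as well. Pcdh9, a protocadherin, stood at 29.1 CPM in SPP1 members and 6.85 CPM in vector members, a log2 ratio of 2.09 (counting interval 1.81 to 2.37), with 1.95 in the other cells. Nrep, the gene of a neuronal regeneration-related protein, stood at 53.7 CPM in SPP1 members and 14.3 CPM in vector members (1.91, with 1.87 in the other cells). Pdgfc, a platelet-derived growth factor, stood at 91.8 CPM in SPP1 members and 36.8 CPM in vector members (1.32, with 1.25 in the other cells). Inhba, a subunit of activin A, was found in 88.4% of SPP1 members and 76.5% of vector members (0.89, with 0.71 in the other cells). Lower in SPP1 members were the calcium pump gene Atp2b4 (-1.14, with -0.92 in the other cells), the oncostatin M receptor gene Osmr (-0.95 and -0.55), the procollagen protease gene Adamts2 (-0.86 and -0.38), Scara5 (-0.76 and -1.01), Prelp (-0.75 and -0.53) and Krt14 (-0.70 and -0.87). Krt14, an epithelial keratin, stood at 86.2 CPM in SPP1 members and 140 CPM in vector members.

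A few of these ratios were larger in members than in the other cells. Btc, the EGF receptor ligand betacellulin, stood at 28.1 CPM in SPP1 members and 14 CPM in vector members, a log2 ratio of 1.01 (0.80 to 1.22), with 0.37 in the other cells. It was found in 298 SPP1 members (30.5%) and 179 vector members (17.8%). Ankrd37, a hypoxia-induced gene, had 0.84 (0.64 to 1.04) in members and 0.25 in the other cells. The difference between these pairs of ratios was not tested. Ifit1, an interferon-induced gene, stood at 10.8 CPM in SPP1 members and 4.90 CPM in vector members (1.14), but only 35 and 33 members held a UMI, 49.5% and 48.0% of the UMIs came from the top 3 cells of each tumour, and the ratio turned negative under 5 other settings, between -0.29 and -0.61. A further gene, Magea9, which lay outside the level filter and was chosen after its values were seen, had 387 UMIs in SPP1 members and 1 in vector members.

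**Figure D5:**
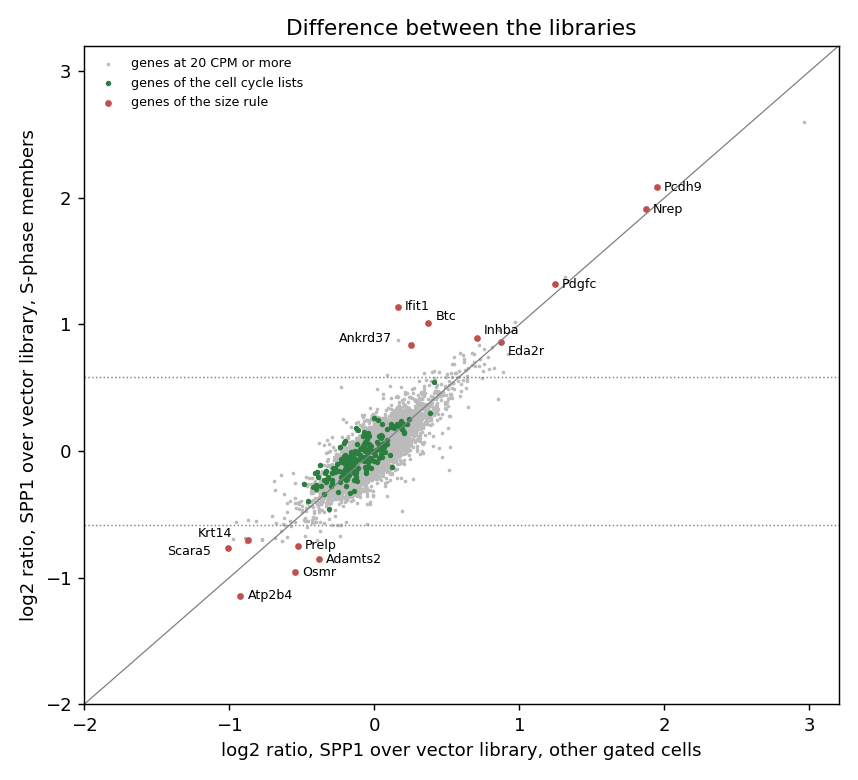
Log2 ratio SPP1 over vector for each of 6772 genes in members (vertical axis) and in the other gated cells (horizontal axis), with cell cycle genes and named genes marked and lines at 1.5-fold. Cell cycle genes lie between -0.46 and 0.55 in members, and Pcdh9, Nrep and Pdgfc lie high on both axes.

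Of the lists for other cell types, neutrophil, red cell, and T and NK transcripts were scarce in members. Dendritic and host fibroblast lists had the highest sums. Summed over a list of 10 macrophage markers, members held 34.5 and 33.5 CPM in the SPP1 and vector tumour, against 73.9 and 51.4 CPM in the other cells. T and NK cell markers summed to 2.02 and 2.35 CPM in members against 2.75 and 2.73 CPM, and neutrophil markers to 0.0505 and 0.200 CPM against 0.223 and 0.299 CPM, with 5 and 3 of 6 at 0 in members. Endothelial markers summed to 18.8 and 7.40 CPM in members against 14.2 and 6.85 CPM, and red cell genes to 0.505 and 0.600 CPM against 1.17 and 0.507 CPM. The dendritic list stood at 125 and 135 CPM in members against 132 and 140 CPM, with 4 and 3 of its 8 genes at 0 in members. Only 1 of the 8 passed the level filter, with log2 ratios of -0.09 and -0.06 of members over other cells. Host fibroblast markers, mostly Dcn, summed to 406 and 276 CPM in members against 1273 and 983 CPM in the other cells, so this list and the matrix genes above moved together, and the part of host cells in the lower matrix levels was not tested. The libraries shared 93 barcodes, 35 of them gated in both, and 0 were members in both. No cell type known to lack replication was at hand to measure free RNA, since T cells can divide, and division, free RNA and doublets were not told apart in the T-like cells. Thinned to 1000 UMIs, a Pclaf UMI was found in 59.1% and 58.5% of SPP1 and vector members, in 9.85% and 10.4% of the other gated cells, and in 7.27% of 55 and 14.3% of 91 T-like cells (median depths 3477 and 3543 UMIs). Whether a Pclaf UMI in a single non-member marks replication was not tested, and it is not read as such.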

How the data were processed

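Single-cell RNA sequencing was measured in 2 libraries, 1 per group, grouped by the sample titles. The deposited values are UMI counts for each gene in each barcode, whole numbers that had not been scaled. The submitters' processing notes name Cell Ranger 2.1.1 and the mouse build GRCm39. Cell calling, chemistry and any earlier doublet removal are not stated in the sources used. The SPP1 library held 14029 barcodes and 164599332 UMIs, and the vector library 14317 and 164247003. Each table held 56941 genes, and 147 symbols that name several genes were told apart by identifier.

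The gate and the score followed the rule given in the report, computed on the counts with Python 3.11.15, numpy 2.4.6 and scipy 1.17.1. At least 3000 UMIs were held by 11836 SPP1 and 11734 vector barcodes, the gate genes left 10566 and 10004, and cells with 0 Ptprc UMIs were 10191 and 9605. Predicted doublets (Scrublet's method in scanpy 1.11.5, per library, expected rate 0.06, Otsu's threshold on the simulated scores) were 743 (5.30%) and 616 (4.30%) of barcodes and were kept, as in the rule. UMIs were summed per library over members and over other gated cells and given as CPM of the sum, with exact conditional binomial 95% intervals for log2 ratios and exact binomial intervals for shares. Genes at 20 CPM or more over all gated cells entered the counts. With 1 library per group no p-value was computed, and a gene was counted at 2-fold (members) or 1.5-fold (libraries). The counts of changed genes and the intervals were checked on simulated counts drawn with counting error only, which hold no spread between cells.

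The members and the 38 gene lists were chosen with earlier results of these data known. Named genes were the 6 of the score, the 4 of the gate, Spp1 and Cd44, up to 12 each way by the smaller ratio of both libraries, up to 8 each way between libraries with an interval past 1.5-fold and at least 100 UMIs (14 and 6 genes passed), and up to 5 per list, plus genes whose role the text explains. Mitochondrial, ribosomal, haemoglobin, clone-named and sex-linked genes were left out. Alternatives changed the threshold, gate, depth, doublets, score genes, summing and level filter, 21 in all. Promoter sequences came from RefSeq on GRCm38.p6. Some genes of the lists are counted but not given singly.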

Additional observations from a re-analysis of the deposited data

Results flagged for a closer look

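Genes named by rule and list genes were compared between libraries by the log2 ratio of members over other gated cells. For 6 of them the ratio had opposite signs in the SPP1 and the vector library, with both counting intervals clear of 0. Genes with an interval that reached 0 were not counted, and with 1 library per group the difference was not tested. Btc, a ligand of the EGF receptor, had 0.23 in the SPP1 library and -0.41 in the vector library, the widest gap of the 6. Tafa1, a gate gene, had 0.12 in the SPP1 library and -0.043 in the vector library. Prrx1, a mesenchymal transcription factor gene, had 0.049 in the SPP1 library and -0.18 in the vector library. Cenpe, a mitotic kinesin gene, had 0.067 and -0.12, and Ldha, a lactate dehydrogenase gene, had 0.084 and -0.031, SPP1 library before vector library. Psmb8, an immunoproteasome subunit gene, had -0.08 in the SPP1 library and 0.083 in the vector library. Apart from Btc, each of these ratios lay within the median size of 0.193 or 0.184 that all measured genes had in the SPP1 and vector libraries.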

How the results depend on the processing

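No paired analysis was possible because each group had 1 library. The log2 ratio of the member share, SPP1 over vector, was negative under each setting that scored both libraries pooled, between -0.30 (score from the licensing, helicase and polymerase lists) and -0.03 (score without Rrm2), and the list score shared 59.7% of the members. That score gave 56 genes lower in members. A level filter of 5 CPM gave 215 genes higher and 79 lower in members, and 169 higher and 76 lower in SPP1 than in vector members. At 50 CPM these were 64 and 22, and 24 and 9. With no filter they were 689 and 431, and 2949 and 1847, where fewer UMIs stand behind each ratio. The other 86 values of the share and the counts stayed within 1.5-fold or within the counting interval. Of the list medians, 811 values stayed and 71 moved, among them recombination (0.60 at 50 CPM, against 1.61) and histones (0.79 with the list score, against 1.36). Of named gene values, 10870 stayed and 1767 moved. Ifit1, SPP1 over vector in members, reversed to -0.32 with thinned cells, -0.61 in the top 5%, -0.29 in the top 20%, -0.49 without Pclaf and -0.35 with the list score, and the cause was not tested. No other named gene that was called reversed. Depth limits genes under 20 CPM and subsets with few members.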
